A study of Mus musculus with 24 samples.

Results

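Livers of progeroid Ercc1 mutants were compared directly with livers of naturally old wild-type mice, to ask where early ageing from a DNA repair defect differs from ageing over a full lifespan, without the young wild types as a shared reference. The 8 libraries were chosen by the labels alone, out of 24 in the series: 4 from mice labelled Ercc1 d/- and fed ad libitum (AL) to 16 weeks, and 4 from mice labelled Ercc1 +/+ and fed AL to 104 weeks. All were male F1 Hybrid C57BL6J/FVBN mice, housed singly on AIN93G synthetic pellets, and no food was given before collection on the last day. In d/- mice both copies of Ercc1 are defective in the whole body, 1 as a null and 1 as a truncated allele, so the liver phenotype is not limited to liver cells. Genotype and age differ together between the groups, 16 weeks in every mutant and 104 weeks in every wild type, so their parts in any difference cannot be told apart. Levels in fed wild types at 16 weeks are given beside some results, and those of 4 fed Ercc1 d/- mice of 7 weeks for Pls1. Restricted mutants and restricted wild types of 16 weeks (food cut by 30%) give a genotype comparison that shares no library with the first.

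ERCC1 is the partner of the nuclease XPF, and together they cut damaged strands during nucleotide excision repair and help to remove crosslinks between DNA strands. Mice with little ERCC1 grow poorly, show polyploid hepatocyte nuclei early and die young. Ribosome profiling sequences the mRNA fragments that translating ribosomes cover, so a count rises with the mRNA level, with translation per mRNA, or with both. Levels are CPM, the footprint count of a gene relative to the effective library size. A level after which ± stands carries the SD of its group's 4 libraries (n = 4), and a log2 difference, always mutants minus old wild types unless stated, carries its standard error.

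Interferon response genes were among the groups that stood higher in mutants, and the promoter windows of 5 of them are shown to let a motif be looked for in them, which 3 of the 5 held. Interferons act through a transcription factor complex that binds interferon-stimulated response elements, searched here by the core GAAA, NN, GAAA (NN being any pair of bases) on both strands with overlapping matches counted. The windows are the 250 bases before the RefSeq start site, 5′ to 3′ on the gene's strand, for the 5 members with the smallest adjusted p that had a window in the table. On GRCm38.p6 they lie at chr3:151749911-151750160 (minus strand, Ifi44), chr5:120907526-120907775 (minus, Oas1a), chr5:120887614-120887863 (minus, Oas1g), chr3:142559794-142560043 (plus, Gbp3) and chr11:72301379-72301628 (plus, Xaf1). Capitals mark every match to the core.
Ifi44: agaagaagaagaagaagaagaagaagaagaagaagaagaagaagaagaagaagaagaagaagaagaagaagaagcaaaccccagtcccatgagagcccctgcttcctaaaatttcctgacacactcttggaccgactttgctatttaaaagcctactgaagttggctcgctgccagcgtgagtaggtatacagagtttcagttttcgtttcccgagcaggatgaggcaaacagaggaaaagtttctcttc
Oas1a: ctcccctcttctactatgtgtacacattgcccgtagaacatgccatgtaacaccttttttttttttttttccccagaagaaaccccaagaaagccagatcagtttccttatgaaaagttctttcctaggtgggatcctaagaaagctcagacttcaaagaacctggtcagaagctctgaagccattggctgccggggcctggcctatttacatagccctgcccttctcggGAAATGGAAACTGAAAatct
Oas1g: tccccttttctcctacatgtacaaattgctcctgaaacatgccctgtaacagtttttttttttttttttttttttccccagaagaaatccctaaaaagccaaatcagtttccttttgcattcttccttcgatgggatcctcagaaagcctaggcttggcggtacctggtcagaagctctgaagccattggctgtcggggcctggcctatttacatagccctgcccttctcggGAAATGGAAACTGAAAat
Gbp3: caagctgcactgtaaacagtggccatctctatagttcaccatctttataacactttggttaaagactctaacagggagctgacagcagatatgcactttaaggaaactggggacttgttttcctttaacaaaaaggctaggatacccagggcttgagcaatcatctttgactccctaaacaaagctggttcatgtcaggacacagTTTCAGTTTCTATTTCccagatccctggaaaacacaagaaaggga
Xaf1: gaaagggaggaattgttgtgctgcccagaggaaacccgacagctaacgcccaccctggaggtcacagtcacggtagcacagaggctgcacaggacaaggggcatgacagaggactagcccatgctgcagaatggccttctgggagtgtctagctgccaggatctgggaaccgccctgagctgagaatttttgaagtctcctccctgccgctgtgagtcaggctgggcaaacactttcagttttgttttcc
Oas1a and Oas1g, neighbouring copies of the RNA sensor oligoadenylate synthetase, each held 2 overlapping matches in the same 16 bases, which began 20 and 18 bases before the start site. Gbp3, a GTPase against intracellular pathogens, held a pair of overlapping matches on the opposite strand, and its other RefSeq window held none. No match was found in the windows of Ifi44 and Xaf1. The core was present in the 300-base window (50 bases after the start included) of 11 of the 16 members that were higher in mutants and had a window, of 10 of the 19 that did not pass, and of 381 of the 9662 tested genes with one (3.94%).

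The total count was 16548918 to 21859015 in the mutant libraries and 13671963 to 16165181 in the old ones, so every mutant library was deeper than every old one. Ercc1 itself (ENSMUSG00000003549.9, chr7:19344067-19356524) had 10, 5, 15 and 12 counts in mutants and 44, 53, 65 and 51 in old wild types. That was 0.564 ± 0.232 against 3.75 ± 0.581 CPM, a log2 difference of -2.73 ± 0.41 (edgeR quasi-likelihood test, adjusted p = 5.44e-05), and the labels and the targeted gene matched in all 8 libraries. The 21 hepatocyte defining genes were all measured and summed to 159000 to 219400 CPM in mutants and 174600 to 283800 in old wild types. Log2 levels correlated at 0.971 to 0.982 between mutant libraries, 0.957 to 0.972 between old ones and 0.940 to 0.956 across the groups. Old replicate 1 stood apart on the second principal component of the 8 libraries, and it held the highest old value for 3369 of 12211 genes (27.6%).

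Of 12211 genes tested, 1555 passed at an adjusted p under 0.05 (12.7%), 784 higher in mutants (6.42%) and 771 lower (6.31%). More than 2-fold differences made up 366 of the higher and 353 of the lower ones. For 2344 genes (19.2%) every library of one group lay above every library of the other, 9.56% with mutants above and 9.64% with old wild types above. The median log2 difference of all genes was -0.01. Scaling by library totals alone called 1433 genes, 920 higher and 513 lower, a share of higher calls of 64.2% in place of 50.4%. In whole liver, fewer cells of a type and fewer footprints per cell cannot be told apart.

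**Figure D1:**
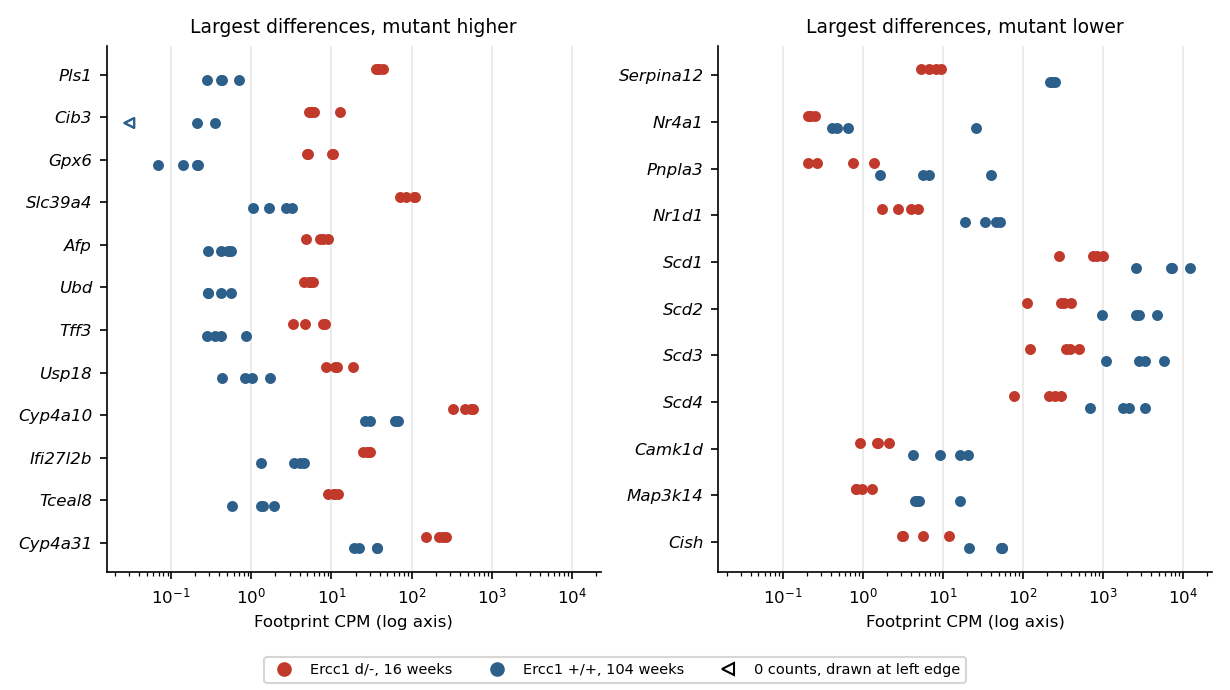
Footprint CPM on a log axis for the 12 genes with the largest positive and 11 of the 12 with the largest negative differences, 1 point per library, for mutants at 16 weeks (red) and wild types at 104 weeks (blue), with libraries at 0 counts drawn as open triangles at the left edge. The groups do not overlap for any of the 23 genes plotted, as the naming rule asks, and Nr4a1 and Pnpla3 have 1 old library far to the right of the other old ones.

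Pls1, which encodes the actin-bundling protein plastin 1 (ENSMUSG00000049493.13, chr9:95752642-95845306), differed most. It stood at 37.5, 43.7, 36.3 and 38.9 CPM in mutants and at 0.712, 0.435, 0.416 and 0.276 CPM in old wild types. Mutant libraries were tight and far above all old ones, with a log2 difference of 6.39 ± 0.41 (adjusted p = 1.04e-09). Fed wild types at 16 weeks had 3.27 ± 1.5 CPM, so the groups lay on opposite sides of the young level: mutants against young differed by 3.54 (adjusted p = 7.93e-08) and old against young by -2.85 (adjusted p = 0.000136), with the young libraries shared. Mutants of 7 weeks already had 22.3 to 34.1 CPM.

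The zinc importer gene Slc39a4 showed the same order. It stood at 112, 86.6, 108 and 72.3 CPM in mutants, at 2.71, 1.67, 3.19 and 1.04 CPM in old wild types and at 17.3 to 21.8 CPM in the young. No library overlapped between any of the 3 groups, and the log2 difference between mutants and old was 5.45 ± 0.54 (adjusted p = 1.39e-06). Tceal8, of a family related to transcription elongation factors, differed on the old side: 10.6 ± 1.29 CPM in mutants and 9.55 CPM in the young against 1.3 ± 0.552 CPM in old wild types (log2 3.02 ± 0.30, adjusted p = 1.75e-07).

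Others of the 12 largest positive differences were near the detection limit in both wild-type groups. Afp, the fetal liver protein alpha-fetoprotein, stood at 7.87, 7.22, 9.14 and 4.82 CPM in mutants and at 0.285, 0.508, 0.416 and 0.553 CPM in old wild types. Every mutant library was at least 4.82 CPM and no old one passed 0.553 CPM (log2 4.02 ± 0.49, adjusted p = 5.14e-06). Gpx6, a glutathione peroxidase, had 7.68 ± 3.08 against 0.159 ± 0.0685 CPM (log2 5.54 ± 0.43), and Cib3, of a calcium- and integrin-binding family, 7.42 ± 3.64 against 0.141 ± 0.174 CPM (log2 5.65 ± 0.55). Cib3 had 0 counts in old replicates 2 and 4, and without old replicate 1 its log2 difference was 6.60. Tff3, a secreted trefoil factor of mucosal and bile duct cells, had 6.04 ± 2.44 against 0.48 ± 0.267 CPM. Ubd, an interferon-inducible ubiquitin-like modifier, had 5.29 ± 0.556 against 0.386 ± 0.127 CPM. Usp18 and Ifi27l2b, and the fatty acid hydroxylases Cyp4a10 and Cyp4a31, complete the 12 and are described with their groups.

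Serpina12, which encodes the secreted serpin vaspin (ENSMUSG00000041567.3, chr12:104028769-104044443), had the largest negative difference. It stood at 9.64, 5.43, 6.73 and 8.22 CPM in mutants and at 220, 253, 233 and 234 CPM in old wild types. The log2 difference was -4.97 ± 0.39 (adjusted p = 3.2e-08), and the young, at 62.1 to 92.7 CPM, lay between both groups without overlap.

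All 4 genes for stearoyl-CoA desaturases, which put the double bond into oleate, were low in mutants. Scd1 stood at 990, 747, 282 and 833 CPM in mutants and at 12045, 7113, 7209 and 2595 CPM in old wild types, and at 7296 CPM in the young. Old libraries spread widely but stayed above 2500 CPM, and none of the mutants reached 1000 CPM (log2 -3.34 ± 0.44, adjusted p = 2.61e-05). Scd2, Scd3 and Scd4 gave log2 differences of -3.30, -3.27 and -3.22, and for all 4 the lowest libraries were mutant replicate 3 and, among the old, replicate 4. The 4 are related genes at separate positions on chromosome 19. How reads that fit several of them were counted is not given in the sources used here, so the genes are uncertain one by one.

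Of the remaining genes in this group, Camk1d, a calcium/calmodulin-dependent kinase, had 1.53 ± 0.482 against 12.6 ± 7.31 CPM (log2 -3.03 ± 0.45). Cish, a feedback inhibitor made on STAT5 signalling, had 5.99 ± 4.22 against 46.2 ± 16.8 CPM (log2 -2.94 ± 0.59), and -3.53 without mutant replicate 2. Old replicate 1 set the size of 3 others. Nr4a1, an orphan nuclear receptor induced within minutes of stimulation, stood at 25.9, 0.653, 0.485 and 0.414 CPM in old wild types against 0.211 to 0.254 CPM in mutants, and its log2 difference moved from -4.88 to -1.17 without replicate 1. Pnpla3, a lipid droplet protein, moved from -4.40 to -2.88, and both lost their calls. Map3k14, the NF-kappaB-inducing kinase, moved from -2.95 to -2.26 and kept it.

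**Figure D2:**
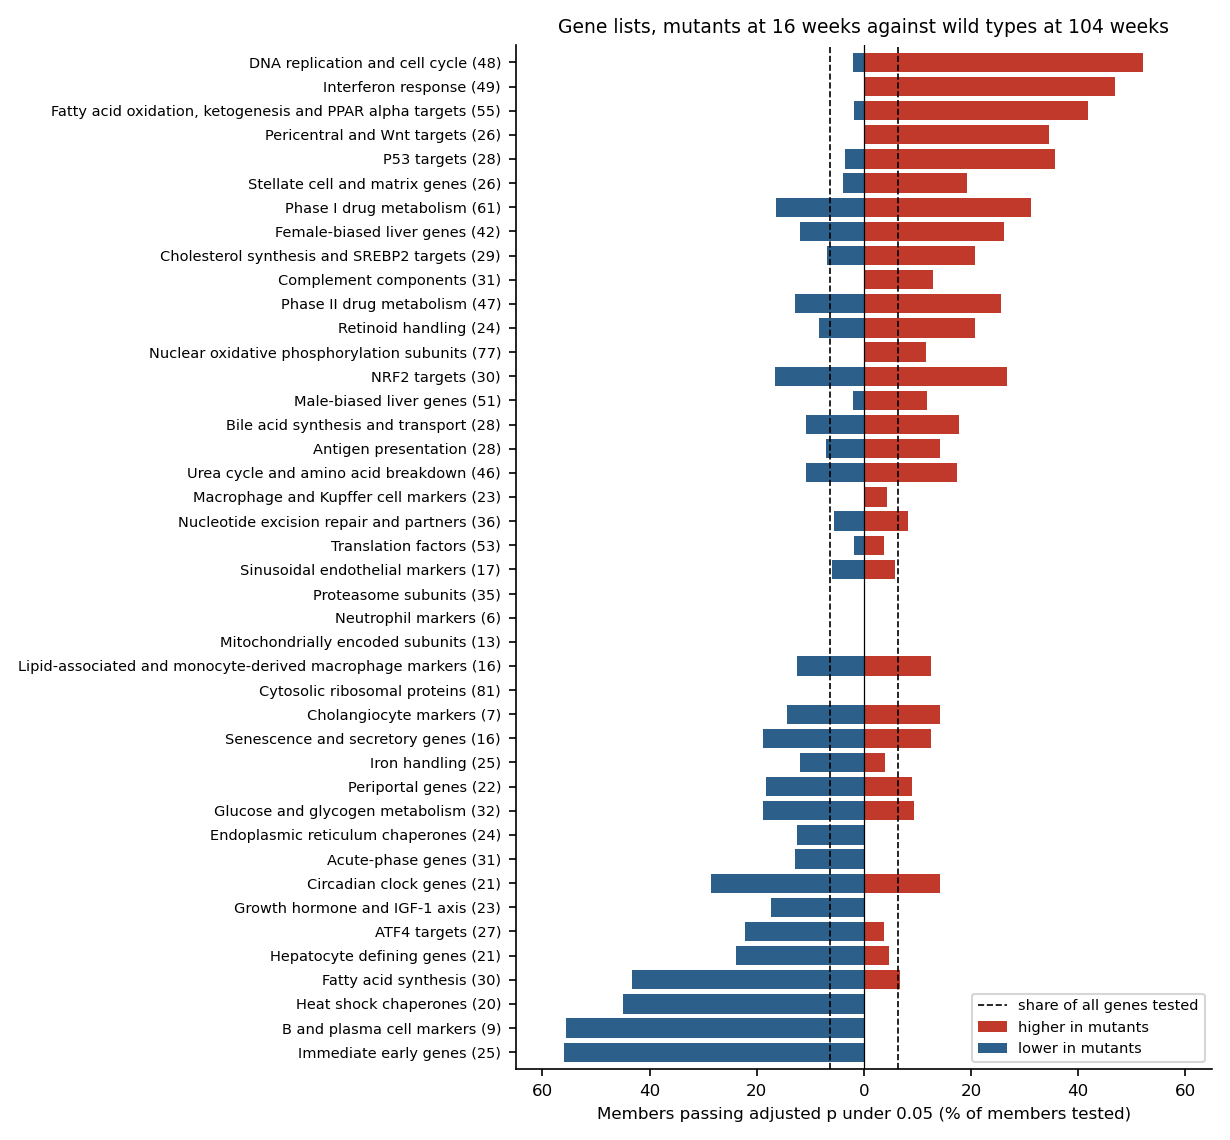
Share of tested members of each gene list that passed at an adjusted p under 0.05, higher in mutants to the right and lower to the left, with the number tested in brackets and dashed lines at the share among all genes tested (6.42% higher, 6.31% lower). Cell cycle, interferon and fatty acid oxidation lists lie far to the right, immediate early, B and plasma cell, heat shock and fatty acid synthesis lists far to the left, and proteasome, ribosomal protein, neutrophil and mitochondrially encoded lists have no call.

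Interferon response genes were higher in mutants than in old wild types. Of 49 tested, 23 passed as higher (6.42% of all genes did) and none as lower, with a median log2 difference of 0.77 against -0.01 for all genes. Usp18, which restrains interferon signalling at its receptor (chr6:121245906-121270917), stood at 18.8, 8.54, 11.1 and 11.9 CPM in mutants and at 0.427 to 1.73 CPM in old wild types. The lowest mutant library was several times the highest old one, with a log2 difference of 3.63 ± 0.36 (adjusted p = 2.48e-07). Ifi27l2b, an interferon-induced membrane protein gene with a close copy, had 28 ± 2.6 against 3.32 ± 1.41 CPM (log2 3.07 ± 0.31). Ifi44 had 3.68 ± 0.458 against 0.178 ± 0.136 CPM (log2 4.33 ± 0.45), with 0 counts in old replicate 4. Oas1a and Oas1g, whose windows hold the motif shown above, had log2 differences of 1.87 ± 0.28 and 1.89 ± 0.31. Old wild types against the young did not pass for Usp18 (log2 0.20, adjusted p = 0.835), and mutants against the same young libraries were at 3.83 (adjusted p = 7.84e-08).

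Across the list, 27 members were higher (5.69% of all genes were) and none lower in mutants against the young, and 1 was higher (4.75% of all genes) and 1 lower (4.59%) in old wild types against the young. Those counts share the young libraries and are set side by side only. Leaving out 1 library left 16 to 22 of the 23 calls in number, with 16 without mutant replicate 1, without old replicate 1 and without old replicate 2. Antigen presentation genes moved in both directions: of 28 tested, 4 were higher and 2 lower (21.4% called, against 12.7% of all genes). Psmb8 and Psmb9, catalytic subunits of the immunoproteasome, had log2 differences of 0.82 ± 0.15 and 0.87 ± 0.25. H2-Aa and H2-Ab1, the chains of a class II molecule of antigen-presenting cells, had -0.67 ± 0.20 and -0.76 ± 0.23. The calls of Psmb9, H2-Aa and H2-Ab1 were lost when single libraries were left out.

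**Figure D3:**
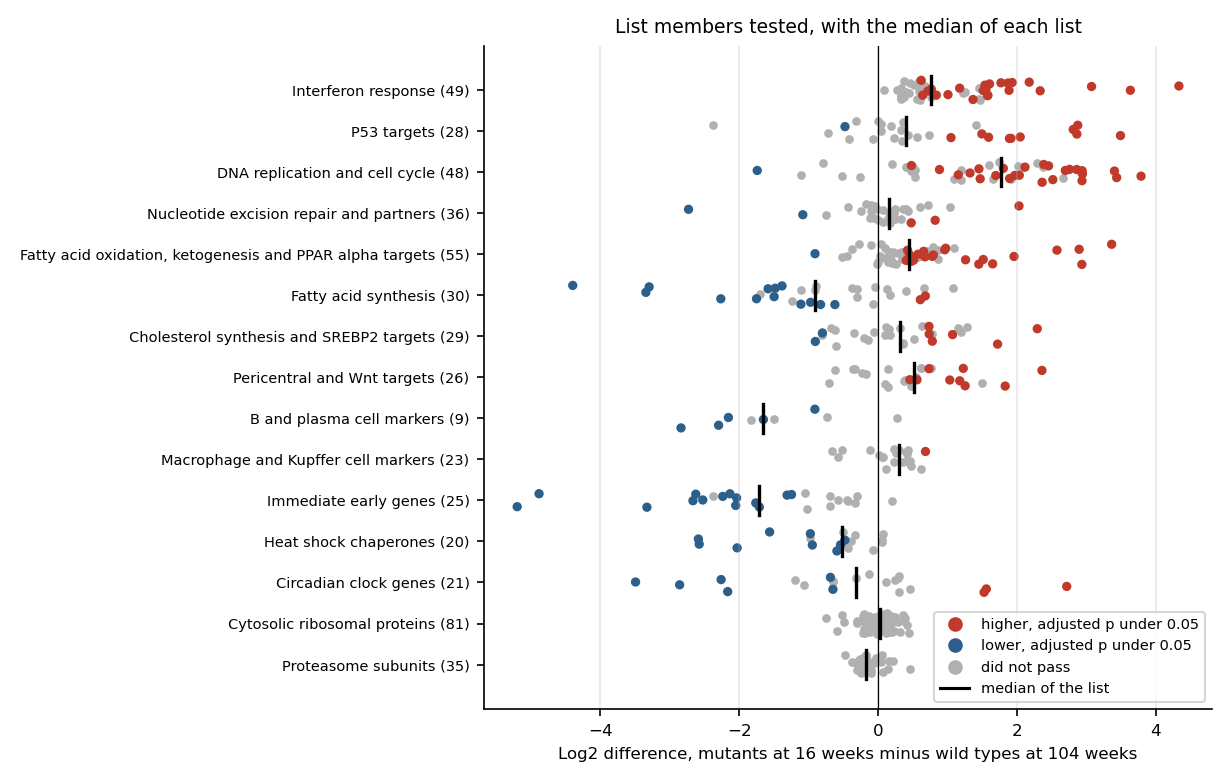
Log2 difference (mutants at 16 weeks minus wild types at 104 weeks) of every tested member of 15 gene lists, 1 point per gene, red or blue where the gene passed at an adjusted p under 0.05 and grey where it did not, with the median of each list as a bar. Medians run from -1.71 for immediate early genes to 1.77 for cell cycle genes, and ribosomal proteins lie close around 0.

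DNA replication and cell cycle genes formed the list with the largest median, 1.77 on the log2 scale. Of 48 tested, 25 were higher in mutants and 1 lower (54.2% called, against 12.7% of all genes). Levels were low throughout, and some members were near 0 in old wild types. Prc1 had 0 to 0.1425 CPM there and 0.492 to 0.634 CPM in mutants. Such members could pass the expression filter only through libraries of other groups, so the count and the median lean on that filter. Top2a, the topoisomerase that untangles chromosomes in mitosis, stood at 2.6, 4.85, 3.34 and 6.12 CPM in mutants and at 0.57, 0.435, 0.832 and 0.345 CPM in old wild types. Every mutant library was above every old one (log2 2.94 ± 0.49, adjusted p = 0.000174). The replicative helicase subunits Mcm5 and Mcm6 had 9.68 ± 2.8 against 1.76 ± 0.484 CPM and 13.8 ± 3.05 against 2.67 ± 0.493 CPM. Stmn1, a microtubule destabiliser, had a log2 difference of 1.70 ± 0.25, and the mitotic kinase Aurka one of 2.94 ± 0.58.

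Fed wild types at 16 weeks were near the mutants for these genes. Top2a was at 1.57 to 4.17 CPM and Mcm5 at 3.14 to 13.7 CPM in the young, ranges that overlap the mutants. In the list, 3 members were higher (5.69% of all genes were) and none lower (5.04%) in mutants against the young, and 1 was higher (4.75%) and 14 lower (4.59%) in old wild types against the young, with the young libraries shared. The 1 member lower in mutants than in old wild types was Rrm2, a subunit of ribonucleotide reductase, named after its values were seen. It stood at 4.38, 14.5, 9.19 and 8.75 CPM in mutants and at 64.2, 23.9, 20.1 and 15.3 CPM in old wild types, and its log2 difference of -1.74 ± 0.39 became -1.10 without old replicate 1, with the call lost in a fit of the 8 libraries alone. Rrm2 thus ran opposite to the other called members in the same livers.

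Targets of p53, the transcription factor switched on by DNA damage, were mostly on the higher side, with a median of 0.40. Of 28 tested, 10 were higher and 1 lower (39.3% called, against 12.7% of all genes). The lower one was Perp, whose call was lost under 9 of 18 alternatives. Gdf15, a stress cytokine, stood at 9.26, 4.59, 2.9 and 3.04 CPM in mutants and at 0.712, 0.58, 0.624 and 0.76 CPM in old wild types. Old libraries were nearly alike, all mutants were at least 2.9 CPM, and the log2 difference was 2.86 ± 0.63 (adjusted p = 0.00357). Phlda3, an inhibitor of AKT, had 5.49 ± 3.3 against 0.736 ± 0.391 CPM (log2 2.88 ± 0.58). Ccng1, a cyclin of the p53 response, had 14.8 ± 6.21 against 4.89 ± 1.46 CPM (log2 1.59 ± 0.30), with mutant replicate 1 at 24 CPM and the others at 10.9 to 12.2. Bbc3, the death factor PUMA, and Gtse1, a G2 and S phase protein that binds p53, had log2 differences of 2.05 ± 0.52 and 3.49 ± 0.64.

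Cdkn1a, the cell cycle inhibitor p21 and the best known p53 target, did not pass. It stood at 96.2, 33.1, 53.8 and 30.7 CPM in mutants and at 39.1, 8.27, 30.3 and 2.28 CPM in old wild types. Both groups spread widely and overlapped, with a log2 difference of 1.42 ± 0.68 (adjusted p = 0.196). Without mutant replicate 1 the number of p53 targets called fell to 5, all higher. Of 16 senescence and secretory genes, 2 were higher, Gdf15 and the macrophage elastase Mmp12 (log2 2.98 ± 0.64), and 3 were lower. That was 31.2% called, against 12.7% of all genes.

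Nucleotide excision repair genes differed close to the rate of all genes, 5 of 36 tested, or 13.9% against 12.7%. Apart from Ercc1, the lower one was Ercc2, a helicase of TFIIH, with 4.15 ± 1.12 against 8.75 ± 1.11 CPM (log2 -1.08 ± 0.20, adjusted p = 0.000639). Higher were Ercc3, the other TFIIH helicase (log2 0.48 ± 0.13, a call lost without old replicate 3), Rpa1, which coats single-stranded DNA (0.82 ± 0.18), and the polymerase subunit gene Pole (2.03 ± 0.41). Ercc2 in mutants was also lower than in the young (-1.04, adjusted p = 0.00102). It lies at chr7:19382017-19395694, close to the targeted Ercc1 (chr7:19344067-19356524), and any part of that position in its level was not tested.

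Of 9 tested markers of B and plasma cells, 5 were lower in mutants and none higher, with a median of -1.65. The share called was 55.6%, against 12.7% of all genes. The count of lower markers was 3 without mutant replicate 1 or 4 or without old replicate 1 or 4. Igkc, the kappa light chain, stood at 4.44, 5.54, 2.35 and 8.62 CPM in mutants and at 26.6, 17.5, 17.9 and 31.9 CPM in old wild types. The groups did not overlap (log2 -2.16 ± 0.47, adjusted p = 0.00351), and the young lay below both at 0.68 to 1.29 CPM. Ighm, the mu heavy chain, and Jchain, which joins IgM and IgA, had log2 differences of -2.84 ± 0.66 and -2.30 ± 0.66, and Jchain lost its call when any of 5 libraries was left out. Xbp1 (-0.91 ± 0.21) is also made by hepatocytes, and without it the 8 other markers summed to 8.54 to 23.0 CPM in mutants, 46.6 to 106 CPM in old wild types and 3.25 to 12.4 CPM in the young. The other 10 of 19 listed markers were under the filter, Ms4a1 among them, and Tnfrsf17 had 0 counts in the 8 libraries.

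Macrophage markers were measured in full, 23 of 23, and only Mpeg1, a pore-forming protein of phagocytes, passed (log2 0.67 ± 0.20, adjusted p = 0.0243), a call lost when any of 5 libraries was left out. DESeq2 called 3 as higher and scaling by library totals alone 5. Their summed level was 811 to 1054 CPM in mutants, 714 to 895 in old wild types and 466 to 540 in the young. Against the young, 20 of the 23 were higher in mutants (5.69% of all genes were) and 15 in old wild types (4.75%), with the young libraries shared. Clec4f, a lectin of Kupffer cells, had 174 ± 23.7 against 129 ± 12.3 CPM (adjusted p = 0.0605). Of 16 markers of lipid-associated macrophages, 2 were higher and 2 lower (25% called, against 12.7% of all genes), and DESeq2 called 5 as higher. Gpnmb, a glycoprotein of lipid-laden macrophages, had a log2 difference of 2.20 ± 0.62, which was 2.85 without old replicate 1 and lost its call without old replicate 3 or 4. Cd9, a tetraspanin, and Fabp5, a fatty acid binding protein, were lower, with 10.3 ± 2.08 against 35.6 ± 4.39 CPM and 11.6 ± 4.01 against 62.2 ± 32.8 CPM.

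Of 14 neutrophil markers 6 were tested, none passed by edgeR or DESeq2 with all libraries, and 1 had an unadjusted p under 0.05, S100a8 (log2 -1.27 ± 0.54, adjusted p = 0.13). Without mutant replicate 4 it was at -1.91 and passed (adjusted p = 0.0432). Lcn2, which hepatocytes also make in inflammation, stood at 219, 53.4, 130 and 541 CPM in mutants and at 3.78, 167, 140 and 17.4 CPM in old wild types. Both groups spread widely and overlapped (log2 1.52 ± 0.98, adjusted p = 0.354), and the difference was 0.71 without mutant replicate 4 and 2.13 without old replicate 2. Of 20 T and NK cell markers only 1 was above the filter.

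Stellate cell and matrix genes were higher in 5 of 26 cases and lower in 1 (23.1% called, against 12.7% of all genes). The higher count was 3 without mutant replicate 1 or without old replicate 2. Lum, the collagen-binding proteoglycan lumican, stood at 21, 16.1, 20.6 and 15.6 CPM in mutants and at 8.48, 6.38, 7.28 and 5.46 CPM in old wild types, without overlap (log2 1.41 ± 0.21, adjusted p = 5.13e-05). Mgp, which hinders calcification, and Col1a2, a chain of type I collagen, had log2 differences of 2.21 ± 0.36 and 1.14 ± 0.28. The lower one was Tagln, an actin-binding protein of smooth muscle, at 1.91 ± 0.298 against 12.7 ± 6.35 CPM (log2 -2.72 ± 0.44). Among 7 tested cholangiocyte markers Tff3 was higher and Sox9 lower. Sox9 stood at 21.5 CPM in old replicate 1 and at 4.23 to 5.73 CPM in the other old libraries, and without that replicate its log2 difference moved from -1.67 to -0.81 and its call was lost.

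**Figure D4:**
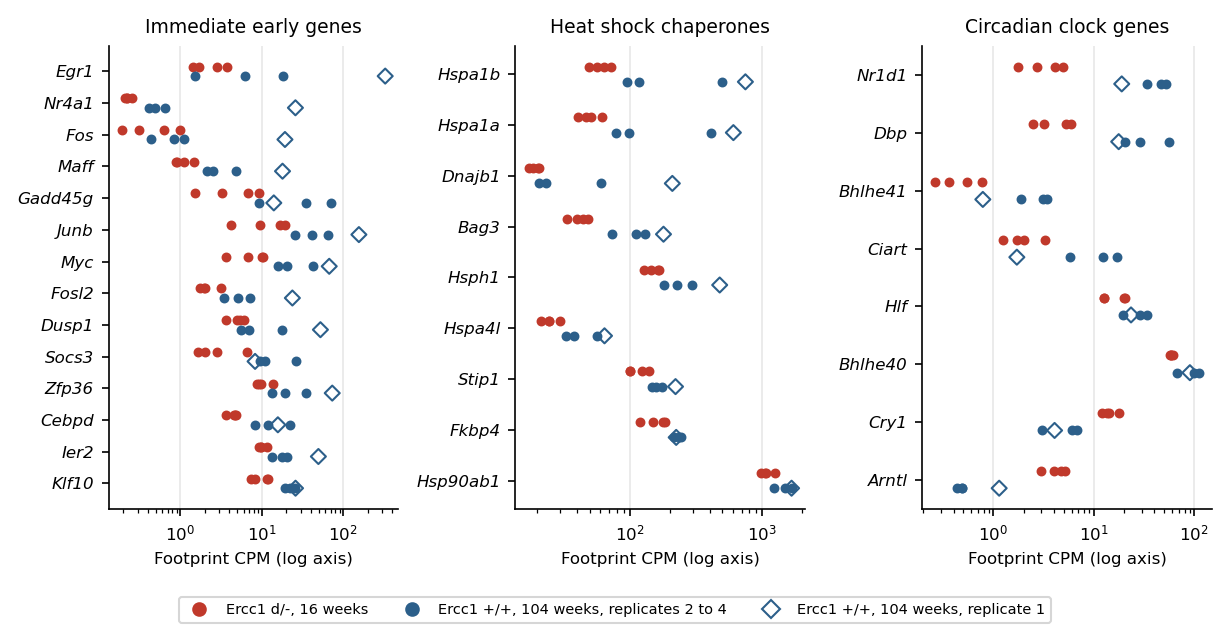
Footprint CPM on a log axis for members that passed in 3 gene lists (all but 1 clock gene), 1 point per library, with old replicate 1 as an open diamond. Old replicate 1 is the highest old library for most immediate early and heat shock genes, and among clock genes it is the highest old library for Arntl and the lowest for Nr1d1.

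Immediate early genes, which cells switch on within minutes of a stimulus, were lower in mutants for 14 of 25 tested, none higher. The share called was 56%, against 12.7% of all genes, and the median was -1.71. In a fit of the 8 compared libraries alone 4 passed. Old replicate 1 held the highest old value for 22 of the 25 (88.0%), against 27.6% of all genes. Junb, an AP-1 subunit, stood at 16.8, 9.49, 4.16 and 19.5 CPM in mutants and at 156, 41.3, 65.4 and 25.6 CPM in old wild types. All old libraries were above all mutants, with replicate 1 far above the other 3 (log2 -2.52 ± 0.50, adjusted p = 0.00211, and -1.82 without that replicate). Zfp36, which marks mRNAs for decay, moved from -1.76 to -1.11 without it. Neither passed in the fit of 8 libraries (edgeR adjusted p = 0.0737 and 0.0822). Klf10 (log2 -1.25 ± 0.27) and Cebpd (-1.71 ± 0.30), both transcription factors, were less uneven, at 19.3 to 25.9 and 8.36 to 22.3 CPM in old wild types. Without old replicate 1, 6 of the 25 passed and the median was -0.75.

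Heat shock chaperones were lower in mutants for 9 of 20 tested, none higher (45% called, against 12.7% of all genes), with a median of -0.52. Old replicate 1 was the highest old library for 17 of the 20 (85.0%). Bag3, a co-chaperone of HSP70, stood at 48.6, 40.3, 44.8 and 33.8 CPM in mutants and at 180, 111, 131 and 72.9 CPM in old wild types. The groups did not overlap (log2 -1.56 ± 0.26, adjusted p = 0.000294). Hspa1a and Hspa1b, near-identical genes of inducible HSP70, had log2 differences of -2.58 ± 0.65 and -2.59 ± 0.65. Dnajb1, a co-chaperone of HSP70, had 210 CPM in old replicate 1 and 20.6 to 60.3 CPM in the other old libraries. The count was 5 without mutant replicate 1 or 4 or without old replicate 3. Without old replicate 1, 1 of the 20 passed, the median was -0.40, and Hspa1b and Dnajb1 moved to -1.97 and -0.85 and lost their calls. What sets old replicate 1 apart was not tested.

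Clock genes split by direction, with 3 higher and 6 lower of 21 tested (42.9% called, against 12.7% of all genes). Arntl, which encodes the activator BMAL1, stood at 4.76, 5.17, 3.99 and 2.99 CPM in mutants and at 1.14, 0.435, 0.485 and 0.484 CPM in old wild types. Every mutant library was higher (log2 2.72 ± 0.39, adjusted p = 2.69e-05). Nr1d1, which encodes REV-ERB alpha, a repressor of Arntl (chr11:98767932-98775377), stood at 4.95, 1.74, 2.74 and 4.06 CPM in mutants and at 19, 33.7, 46.7 and 52.3 CPM in old wild types. The order was reversed without overlap, with a log2 difference of -3.49 ± 0.42 (adjusted p = 7.34e-06). Dbp, an output activator of the clock, was lower as well (4.2 ± 1.64 against 30.6 ± 17.6 CPM), and Cry1, a repressor, was higher (log2 1.53 ± 0.21).

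Against the young, Arntl was at -0.29 (adjusted p = 0.632) in mutants and at -3.01 (adjusted p = 1e-05) in old wild types, and Nr1d1 at 0.19 and 3.68, with the young libraries shared. Without old replicate 1 the clock counts were again 3 higher and 6 lower. The labels give the light cycle but no hour of collection for a library, and its part in these values was not tested.

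Genes of fat burning and ketone production, including targets of PPAR alpha, the nuclear receptor active in fasting, were higher in mutants than in old wild types. Of 55 tested, 23 were higher and 1 lower (43.6% called, against 12.7% of all genes), with a median of 0.45. Cyp4a10, an omega-hydroxylase and a sensitive PPAR alpha target, stood at 585, 547, 332 and 465 CPM in mutants and at 68.5, 30.2, 62.4 and 26.2 CPM in old wild types. The groups were far apart (log2 3.36 ± 0.34, adjusted p = 9.18e-07), and the young, at 563 to 1788 CPM, lay above the old and overlapped the mutants. Cyp4a31 and Cyp4a32, close copies of it, had log2 differences of 2.94 ± 0.29 and 2.90 ± 0.30. Vnn1, a pantetheinase, and Cd36, a fatty acid importer, had 44.7 ± 11.2 against 11.5 ± 2.42 CPM and 78.6 ± 11.2 against 25 ± 10.4 CPM.

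Both groups were low for these genes beside the young: none were higher and 25 lower (5.04% of all genes) in mutants against the young (10.7% of genes called in all), and none higher and 40 lower in old wild types (9.34% called in all) against the young, counts that share the young libraries. The 1 member lower in mutants than in old wild types was Fabp1, the abundant fatty acid binding protein of hepatocytes, named after its values were seen. It stood at 1930, 1886, 1391 and 1303 CPM in mutants and at 3401, 3208, 2300 and 3299 CPM in old wild types (log2 -0.91 ± 0.17, adjusted p = 0.000832). Mutants lay below all old libraries, and the young, at 3299 to 5052 CPM, overlapped the old.

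Fatty acid synthesis genes ran the other way, with 13 of 30 lower and 2 higher (50% called, against 12.7% of all genes) and a median of -0.90. Without old replicate 1, 9 were lower and 2 higher. Besides the Scd genes, Acacb, which makes the malonyl-CoA that blocks fat import into mitochondria, stood at 26, 27.6, 25.1 and 30.4 CPM in mutants and at 180, 134, 165 and 45.4 CPM in old wild types. Mutants were tight and below all old libraries, of which replicate 4 was the lowest (log2 -2.26 ± 0.36, adjusted p = 0.00021). Elovl5, an elongase, and Me1, which supplies NADPH, had log2 differences of -1.38 ± 0.23 and -1.75 ± 0.33. Against the young, 10 were lower in mutants (5.04% of all genes were) and 4 in old wild types (4.59%), with the young libraries shared.

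Cholesterol synthesis and SREBP2 targets were higher in 6 of 29 cases and lower in 2 (27.6% called, against 12.7% of all genes), with a median of 0.31. None was lower without mutant replicate 4 or without old replicate 1. Msmo1, a sterol oxidase, Hsd17b7, a ketosteroid reductase, and Srebf2, the transcription factor of the pathway, had log2 differences of 1.72 ± 0.38, 0.73 ± 0.17 and 0.74 ± 0.19. For Msmo1 and Hsd17b7 it was the old wild types that were near the young, at 26.3 against 22.4 CPM and 28 against 27.3 CPM.

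Drug metabolism genes differed in both directions. Of 61 phase I genes 19 were higher and 10 lower (47.5% called, against 12.7% of all genes). Of 47 phase II genes 12 were higher and 6 lower (38.3% called). Cyp2c29 stood at 131, 169, 144 and 132 CPM in mutants and at 1154, 773, 1205 and 842 CPM in old wild types (log2 -2.78 ± 0.22, adjusted p = 6.7e-09). Fmo1, a flavin monooxygenase, stood at 398, 536, 455 and 434 CPM in mutants and at 156, 107, 129 and 115 CPM in old wild types, in the opposite order (log2 1.84 ± 0.16, adjusted p = 1.34e-08). Cyp2a4 and Cyp2a5, close copies that hydroxylate steroids and coumarin, both had a log2 difference of 2.13 ± 0.25. Of the conjugating enzymes, Gstt2, a glutathione transferase, and Ugt1a1, which conjugates bilirubin, were higher (1.41 ± 0.19 and 0.82 ± 0.13) and the sulfotransferase Sult5a1 was lower (-2.08 ± 0.35).

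Genes that differ between the sexes in mouse liver depend on androgens and on the pattern of growth hormone pulses, and all 8 animals were male. Of 42 female-biased genes 11 were higher in mutants and 5 lower (38.1% called). Of 51 male-biased genes 6 were higher and 1 lower (13.7% called, against 12.7% of all genes). In a fit of the 8 compared libraries alone 11 male-biased genes were lower. Fmo2 was among the female-biased ones that were higher (log2 2.05 ± 0.26), and Ntrk2, a neurotrophin receptor, among those that were lower, with 6.66 ± 2.02 against 35.2 ± 5.94 CPM (log2 -2.39 ± 0.25, adjusted p = 4.9e-07). Ugt2b1 and C6 were higher among male-biased genes (0.69 ± 0.17 and 0.86 ± 0.19), and Serpina1e, a protease inhibitor with close copies, was lower (-0.90 ± 0.22). Both sets held calls in both directions.

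Of 23 growth hormone and IGF-1 axis genes none was higher and 4 were lower (17.4% called, against 12.7% of all genes). Ghr, the growth hormone receptor, stood at 109, 110, 128 and 124 CPM in mutants and at 172, 175, 167 and 190 CPM in old wild types (log2 -0.58 ± 0.16, adjusted p = 0.0194). The groups did not overlap, though the call was lost with library totals alone and without any of 3 libraries. Stat5b, its transcription factor, and Socs3, a feedback inhibitor, had log2 differences of -0.58 ± 0.16 and -2.04 ± 0.45. Stat5b lost its call with library totals alone and without old replicate 3, and Socs3 was at -2.66 without mutant replicate 4. Igf1 had 250 ± 18.3 against 264 ± 44.5 CPM and did not pass (log2 -0.08 ± 0.15, adjusted p = 0.787).

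Pericentral genes, expressed around the central vein under Wnt signals, were higher in 9 of 26 cases and lower in none, with a median of 0.51. Periportal genes were higher in 2 of 22 and lower in 4. The shares called were 34.6% and 27.3%, against 12.7% of all genes. Axin2, a direct Wnt target, stood at 3.55, 2.69, 3.17 and 1.74 CPM in mutants and at 0.356, 0.871, 0.902 and 0.967 CPM in old wild types, without overlap (log2 1.83 ± 0.38, adjusted p = 0.00183). Gulo, the last enzyme of vitamin C synthesis, Rhbg, an ammonium transporter, and Por, the electron donor of microsomal P450 enzymes, had log2 differences of 1.03 ± 0.16, 2.36 ± 0.43 and 1.18 ± 0.24. Oat, which handles ornithine, had 1050 ± 199 against 440 ± 161 CPM. The other 17 pericentral genes did not pass, among them the Wnt targets Lgr5 (log2 0.62, adjusted p = 0.413) and Notum (-0.71, adjusted p = 0.198). On the periportal side Asl, of the urea cycle, was higher (0.72 ± 0.18), and Ctsc, a lysosomal protease, and Hal, which opens histidine breakdown, were lower (-0.86 ± 0.15 and -0.69 ± 0.19). Without mutant replicate 1, where Hal lost its call, or without old replicate 1, 2 periportal genes were lower.

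Glucose genes were lower in 6 of 32 cases and higher in 3 (10 and 5 by DESeq2). That was 28.1% called, against 12.7% of all genes. Pfkfb3, which raises glycolytic flux, stood at 17.6, 10.5, 12 and 9.02 CPM in mutants and at 57.7, 48.2, 74.4 and 47.7 CPM in old wild types. The young, at 8.96 to 14.6 CPM, overlapped the mutants and not the old (log2 between mutants and old -2.22 ± 0.28, adjusted p = 9e-06). Khk, which phosphorylates fructose, and Pklr, liver pyruvate kinase, had -0.74 ± 0.16 and -1.11 ± 0.24, and glycogen synthase Gys2 had 0.92 ± 0.19. Of 46 urea cycle and amino acid genes 8 were higher and 5 lower (28.3% called). Csad, of taurine synthesis, stood at 9.32, 12.2, 9.57 and 14.7 CPM in mutants and at 55.3, 91.7, 36.5 and 91.7 CPM in old wild types (log2 -2.58 ± 0.50, adjusted p = 0.00164), with the young at 31.1 to 109 CPM. Amdhd1, of histidine breakdown, and Haao, of tryptophan breakdown, had -1.42 ± 0.16 and -0.89 ± 0.13.

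ATF4 targets, made when translation initiation is held back by stress, were lower in 6 of 27 cases, and the 1 higher was Gdf15, which p53 also drives. That was 25.9% called, against 12.7% of all genes. Atf5 stood at 2.73, 6.33, 3.28 and 4.38 CPM in mutants and at 21.5, 8.42, 19.8 and 14.2 CPM in old wild types (log2 -1.93 ± 0.31, adjusted p = 0.00013). Cbs, of homocysteine removal, and Vldlr, a lipoprotein receptor, had -0.95 ± 0.13 and -2.82 ± 0.50, and Vldlr was at -2.08 without old replicate 1. Of 24 endoplasmic reticulum chaperones and partners 3 were lower (12.5% called, against 12.7% of all genes in either direction). The lower count was 1 when any of 6 libraries was left out, and the call of Herpud1 (-0.97 ± 0.29) was among those lost. Of 31 acute-phase genes 4 were lower and none higher (12.9% called, against 12.7% of all genes), and 2 were lower without mutant replicate 2 (2 higher), mutant replicate 3 or old replicate 2.

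The translation machinery held few calls. None of 81 cytosolic ribosomal protein genes passed by edgeR or DESeq2, 1 had an unadjusted p under 0.05, and their log2 differences ran from -0.74 to 0.45 with a median of 0.03. Of 53 translation factors 2 were higher and 1 lower (5.66% called, against 12.7% of all genes). Eif2b3, of the exchange factor of eIF2, and Abce1, which splits ribosomes, had 0.71 ± 0.18 and 0.42 ± 0.11, and the scaffold Eif4g3 had -0.52 ± 0.14. Abce1 lost its call without old replicate 3 and Eif4g3 with library totals alone. None of 35 proteasome subunits passed by edgeR and 2 by DESeq2, both lower, with 8 lower and 2 higher at an unadjusted p under 0.05. Psmb5 was close to the threshold, at 87.5 to 89.9 CPM in mutants and 102 to 112 in old wild types (log2 -0.27 ± 0.09, adjusted p = 0.0588).

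Mitochondrially encoded subunits took 0.271 ± 0.105% of counts in mutants and 0.119 ± 0.0686% in old wild types, a difference of 0.153 percentage points (exact 2-sided permutation test, p = 0.0571; the smallest p that 4 against 4 allows is 0.0286). All 13 of these genes had positive log2 differences, from 0.83 to 1.20 with a median of 1.02. None passed by DESeq2 or by edgeR with all libraries and no replicate block, and 6 had an unadjusted p under 0.05. Without old replicate 2 edgeR called 2. Of 77 nuclear subunits of oxidative phosphorylation 9 were higher and none lower (11.7% called, against 12.7% of all genes in either direction and 6.42% higher), among them Atpif1, an inhibitor of ATP synthase (1.10 ± 0.18), Ndufb4 of complex I (0.55 ± 0.13) and Sdhd of complex II (0.40 ± 0.11). That count was 4 without mutant replicate 1, 3 without old replicate 4 and 5 in a fit of the 8 compared libraries alone. Albumin took 8.89 ± 0.701% of counts in mutants and 6.42 ± 1.63% in old wild types, a difference of 2.47 points (exact 2-sided permutation test, p = 0.0571). In young wild types the mitochondrial share was 0.305 ± 0.151% and the albumin share 9.92 ± 0.657%, both means nearer the mutants than the old.

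Tested genes were sorted by genomic span, introns included, and cut into 5 bins of like number. In the bin of longest genes, from 67706 bases, 285 of 2442 were lower and 85 higher, with a median log2 difference of -0.17. In the other 4 bins 92 to 150 were lower and 163 to 198 higher, with medians of 0.01 to 0.04. The longest bin's mean log2 CPM minus the shortest bin's was -0.55, -0.64, -0.78 and -0.56 in mutants and -0.43, -0.47, -0.54 and -0.43 in old wild types. Mutants were lower in all 4 libraries, by -0.16 on average (-0.63 ± 0.107 against -0.47 ± 0.0504, exact 2-sided permutation p = 0.0286, the smallest that 4 against 4 allows, and 0.0571 adjusted over the 3 library measures). Young wild types were at -0.48 ± 0.0617, near the old. Fed mutant replicate 3 was the lowest of the 8 libraries, and without it the difference was -0.11. Restricted mutants were at -0.57, -0.55, -0.49 and -0.59, and restricted wild types at -0.54, -0.46, -0.67 and -0.95. The restricted mutants thus lay within the range of the restricted wild types. Depth moved with the groups as well, all mutant libraries being deeper.

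**Figure D5:**
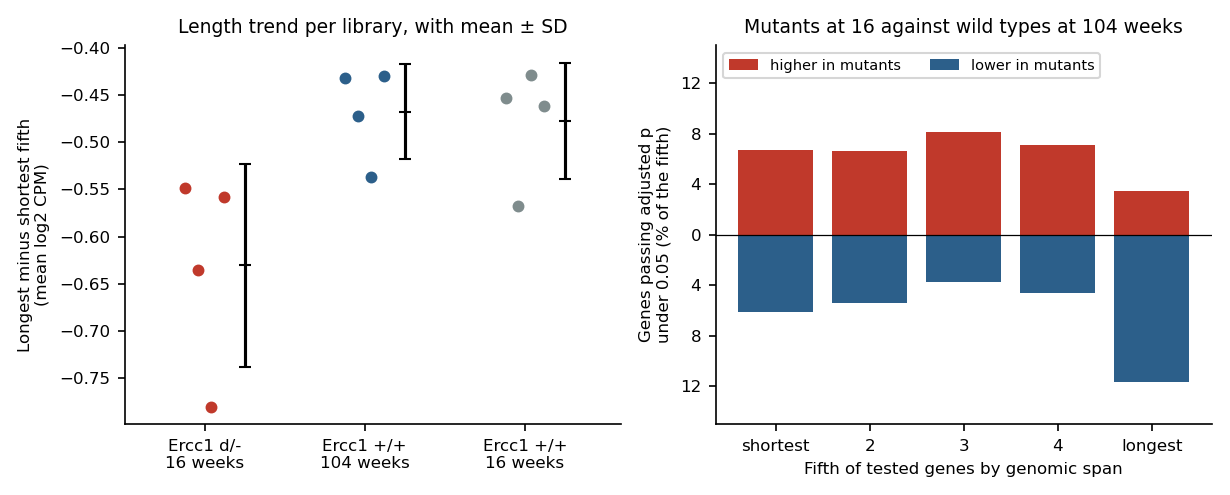
Left, the longest bin's mean log2 CPM minus the shortest bin's, 1 point per library, of mutants at 16 weeks, wild types at 104 weeks and wild types at 16 weeks, with mean ± SD beside the points. Right, the share of genes in each of 5 bins by genomic span that passed as higher or lower in mutants, where the bin of longest genes has 285 lower and 85 higher genes.

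Restricted mutants against restricted wild types, both of 16 weeks, gave the genotype difference without an age difference and without a library of the first comparison. It called 2227 genes (18.2%), 1146 higher (9.38%) and 1081 lower (8.85%). Of the 784 genes higher in fed mutants than in old wild types, 324 were higher there too, 41.3% of the first list and 28.3% of the second. Of the 771 lower genes 245 were lower there too, 31.8% and 22.7%. Opposite calls were made for 20 and 19 genes. Diet differs between the comparisons, so genes of feeding are not matched.

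Among the 12 genes with the largest positive differences, 10 passed in the same direction under restriction, all but Cyp4a10 and Cyp4a31. Usp18 was at 3.66 (adjusted p = 3.04e-08) and Pls1 at 3.90 (adjusted p = 2.58e-08) there. Of the 12 with the largest negative differences 3 did so, among them Serpina12 at -3.39 (adjusted p = 7.15e-06) and Camk1d at -1.28 (adjusted p = 0.038). The Scd genes, at -0.61 for Scd1 (adjusted p = 0.316), and Nr1d1, at 0.74 (adjusted p = 0.355), did not pass. By group, interferon genes had 33 of 49 higher and none lower under restriction and cell cycle genes 16 of 48 higher and 1 lower. Immediate early genes had none higher and 1 lower, B and plasma cell markers none in either direction, and fatty acid oxidation genes 3 higher and 22 lower. Heat shock chaperones had none higher and 10 of 20 lower, with a median of -0.82. Cholesterol genes had 1 of 29 higher and 4 lower, with a median of -0.5, opposite in sign to the first comparison.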

How the data were processed

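Ribosome footprints of 24 mouse livers were counted per gene by the authors, and the deposited table holds raw counts of 22429 genes. The submitters' processing notes name Trimmomatic 0.39, cutadapt 3.4, Bowtie2 2.4.2, STAR 2.7.0f and 2.7.8a, featureCounts of Subread 1.6.4 and the build GRCm38.p6. How reads that fit several genes were counted, and whether strand was used, is not given in the sources used here, so near-identical copies and overlapping genes are uncertain. A second table of footprint positions in reading frames was not used, and mRNA libraries were not analysed here. Groups come from the labels, which number the livers 1 to 4 in each group, and p-values measure the spread between these livers.

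Genes passing edgeR's expression filter (12211) were scaled by TMM and fitted over all 24 libraries in 6 groups with edgeR 4.0.16 in R 4.3.3 (quasi-likelihood test, robust, 18 residual degrees of freedom, biological coefficient of variation 24.2%). Each gene's adjusted p is from that edgeR fit unless another fit is named, Benjamini-Hochberg adjusted over all genes tested, with a threshold of 0.05. For the length difference, the adjusted p is a permutation p adjusted over the library measures. Library measures were compared by exact 2-sided permutation tests. DESeq2 1.42.0 and other settings were tried as alternatives. Counts were simulated for this comparison over 12030 genes, with no outlying library. There 44% of 100 genes changed 2-fold and 86% of 100 changed 4-fold were recovered, and 2.26% of calls were false. Genes were named as the 12 largest differences in each direction among called genes with groups that do not overlap and, for the higher of the groups, 5 CPM or more on average, gene models without a proper symbol left out, plus up to 5 members of each list with the smallest adjusted p, and Ercc1, Igf1, Cdkn1a and Gdf15. Rrm2, Fabp1, Perp, Lgr5 and Notum were chosen after their values were seen. Members and lists were chosen with earlier results of these data known. Promoter windows were matched by symbol to RefSeq. A few genes that the rule names are not reported here.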

Additional observations from a re-analysis of the deposited data

Results flagged for a closer look

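In 21 of the 336 groups of 4 libraries examined, 1 library stood far from the other 3, where chance gives about 1 in 20, or 17. Of the 21, 15 were old wild types, 7 of them old replicate 1, and 6 were mutants.

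Old replicate 1 stood apart for Nr4a1 at 25.9 CPM (the others 0.414 to 0.653), Pnpla3 at 39.6 CPM (1.66 to 6.75), Map3k14 at 16.4 CPM (4.51 to 5.08), S100a8 at 4.06 CPM (1.45 to 1.67), Sox9 at 21.5 CPM (4.23 to 5.73) and Arntl at 1.14 CPM (0.435 to 0.485), all high, and for Axin2 at 0.356 CPM (0.871 to 0.967), which was low. Old replicate 2 was low for Cish at 21 CPM (53.8 to 55.1), Aurka at 0.145 CPM (0.276 to 0.285) and Aldh1a1 at 795 CPM, and high for C2 at 30.4 CPM (22.7 to 23.7). Old replicate 3 was high for Socs3 at 25.9 CPM (8.26 to 10.9) and Phlda3 at 1.32 CPM (0.499 to 0.622), and low for Sult1d1 at 70.4 CPM (81.2 to 81.8) and Ces2b at 23.6 CPM (30.9 to 31.4).

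Among mutants, replicate 2 was high for Cib3 at 12.9 CPM (5.27 to 6.02) and Akr1d1 at 208 CPM (154 to 162), and low for Serpina1e at 7470 CPM. Replicate 1 was high for Ccng1 at 24 CPM (10.9 to 12.2) and low for Hal at 92.9 CPM (144 to 150). Replicate 3 was low for Stat5b at 21.8 CPM (24.5 to 25).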

How the results depend on the processing

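The count of 1555 genes was 1217 to 1373 when 1 library was left out (lowest without mutant replicate 3). It was 1319 to 1923 under the other settings, the highest by DESeq2. The restricted comparison had 2180 to 2313 calls in the same leave-out fits. Those fits left out only fed mutant or old libraries, never a restricted one. How far the restricted count depends on its own libraries was therefore not tested. Thinning every library to 13366558 counts, chosen after seeing the data, gave 1502 genes and kept 91.3% of the calls. Library totals alone turned the share of higher calls from 50.4% to 64.2%. Replicate numbers did not pair the livers (correlations of deviations 0.104, -0.171, 0.0423 and -8.05e-05), and a replicate block gave 1473 and 2149 genes, with 7 of the 13 mitochondrially encoded genes higher in place of 0. The length difference was -0.112 (exact permutation p = 0.0857) with 3 bins of genes in place of 5, -0.163 with the replicate block (exact sign flips, p = 0.125), and -0.19 to -0.113 when 1 library was left out (exact permutation p 0.0286 to 0.0857). The mitochondrial share differed by 0.107 to 0.185 and the albumin share by 1.89 to 3.06 points when 1 library was left out. Of 154 called genes followed under 18 alternatives, 125 kept their call in all and 29 lost it in at least 1. Igf1, not called, turned sign at 0.0316 without old replicate 3, and gave -0.16 without old replicate 1. In the simulation 44% of 2-fold changes were recovered. It changed far fewer genes than were called here and held no outlying library, so that share need not hold for these data.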

Other observations

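Complement genes were higher in 4 of 31 cases and lower in none (12.9% called, against 12.7% of all genes), with a median log2 difference of 0.21. The higher count was 3 without mutant replicate 1, 7 without mutant replicate 2, and 8 with library totals alone. Mbl2, a lectin that starts complement on microbial sugars, had 742 ± 167 CPM in mutants against 244 ± 79.7 in old wild types (log2 1.61 ± 0.19). Among 28 bile acid genes 5 were higher and 3 lower (28.6% called). Abcc3, an exporter on the blood side of hepatocytes, had 274 ± 57.2 against 112 ± 20 CPM, and Abcb11, the bile salt export pump, had 148 ± 32.6 against 357 ± 22 CPM (log2 1.29 ± 0.15 and -1.27 ± 0.21).

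Of 25 iron genes 1 was higher and 3 were lower (16% called, against 12.7% of all genes). The higher one was the transferrin receptor Tfrc, with 39.3 ± 18.1 against 9.32 ± 4.33 CPM (log2 2.08 ± 0.39). Lower were the exporter Slc40a1 (-0.63 ± 0.18), the ferritin chain Ftl1 (-1.25 ± 0.36) and the hormone hepcidin, Hamp (-0.77 ± 0.23). None was lower without mutant replicate 2, 1 without mutant replicate 3, old replicate 1 or old replicate 4, and the 3 lost their calls under 5, 6 and 6 of 18 alternatives. Of 24 retinoid genes 5 were higher and 2 lower (29.2% called). The lower count was 1 when mutant replicate 2, 3 or 4 or old replicate 1 was left out. Rdh5, a retinol dehydrogenase, was at 27.7 ± 2.07 against 10.1 ± 2.82 CPM (log2 1.46 ± 0.21). Of 30 NRF2 targets 8 were higher and 5 lower (43.3% called). Nqo1, a quinone reductase, was among the higher (1.25 ± 0.27) and Me1 among the lower (-1.75 ± 0.33). The lower count was 3 without mutant replicate 2 or 3 or without old replicate 1.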
